A study of Mus musculus with 6 samples.

Results

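The genes described here are 10 genes of bone morphogenetic protein (BMP) signalling in the mouse embryonic lung: the ligand genes Bmp2, Bmp4, Bmp5 and Bmp7, the target genes Id1, Id2 and Id3, and the antagonist genes Bambi, Grem1 and Nog. They were listed by name, and each was read from the single probe set whose annotation carries that 1 gene symbol. All 10 were measured, of 22180 genes with such a probe set, and no member had a second probe set, whether single-symbol or shared with another gene. The list was drawn up with earlier results of these data known.

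Lungs were taken from E12.5 embryos, and each microarray was made from 100 ng of total RNA. The control group was 3 lung samples of genotype Shh cre/+, which carry a Cre recombinase knocked into the Shh locus. The mutant group was 3 samples of genotype Fzd2Flox/Flox; Shh cre/+, so both groups carry the same Cre allele. Shh is expressed in the lung epithelium, and the design asks which genes depend there on Fzd2, a Frizzled receptor for Wnt ligands. The arrays hold RNA of the whole bud, in which mesenchyme is also present, and the sources used here do not say whether a sample was 1 lung or a pool. The labels call the samples biological replicates.

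BMPs are secreted ligands of the transforming growth factor beta superfamily. They bind pairs of serine/threonine kinase receptors, which phosphorylate Smad1, Smad5 and Smad9; these join Smad4, enter the nucleus and induce genes such as the Id family, whose products bind and block basic helix-loop-helix transcription factors. In the branching lung Bmp4 is made at the tips of the epithelium and in the mesenchyme beside them, and secreted antagonists such as noggin and gremlin limit how far the signal reaches.

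The arrays carried the defining genes of embryonic lung. Log2 values lay between 10.05 and 10.57 for Nkx2-1, between 10.08 and 11.06 for Sftpc, and between 12.03 and 12.20 for the mesenchymal factor Foxf1, against array medians of 7.29 to 7.32. Fzd2, the targeted gene, differed by -0.29 on the log2 scale (SE 0.15, adjusted p = 0.475 by limma), with 9.57, 9.82 and 9.75 in controls 1 to 3 and 9.67, 9.07 and 9.54 in mutants 1 to 3, so mutant replicate 1 lay within the control range. Of the 6 arrays, 3 stood apart in genes of other tissues. The mean log2 value of 10 adult small intestine genes was 9.08 in control replicate 1 and 6.29 to 6.48 elsewhere. That of 7 adipose tissue genes was 9.59 in mutant replicate 2 and 6.73 to 7.35 elsewhere, and that of 6 heart muscle genes was 9.69 in mutant replicate 1 and 8.34 to 8.43 elsewhere. Control replicate 2 alone lacked Y-linked signal (Uty 5.40 against 10.52 to 10.59).

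All 10 genes had a higher mean in mutant than in control lungs. Their median log2 difference was 0.11, while 54.8% of all genes had a higher mean and the median of all genes was 0.01. The differences were small, from 0.01 for Bmp5 to 0.30 for Id3, which is 1.23-fold. None passed limma at an adjusted p under 0.05 over all genes (0 of 10, against 0.0631% of all genes), and the lowest adjusted p was that of Id3 (0.247). At an unadjusted p under 0.05, Id1 and Id3 were higher and 0 members were lower, where 7.34% of all genes were higher and 5.15% lower. After a further quantile normalization that split of all genes was 2041 higher and 763 lower, against 1628 and 1142 as deposited, and the members' count stayed at 2.

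The mutant arrays were not alike in these genes. In mutant replicates 1 and 3, 8 of the 10 genes lay above the highest control, where 30.1% and 31.8% of all genes did so. In mutant replicate 2 only Id3 did so (1 of 10, against 30.9% of all genes), and Bmp4, Bmp7 and Id2 lay below the lowest control. The median deviation of the 10 genes from the control mean was 0.21 in mutant replicates 1 and 3 and -0.06 in mutant replicate 2. Mutant replicate 2 is the array with the adipose genes and the lowest Fzd2 value, and mutant replicate 1 the array with the heart genes; their part in these values was not tested.

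**Figure D1:**
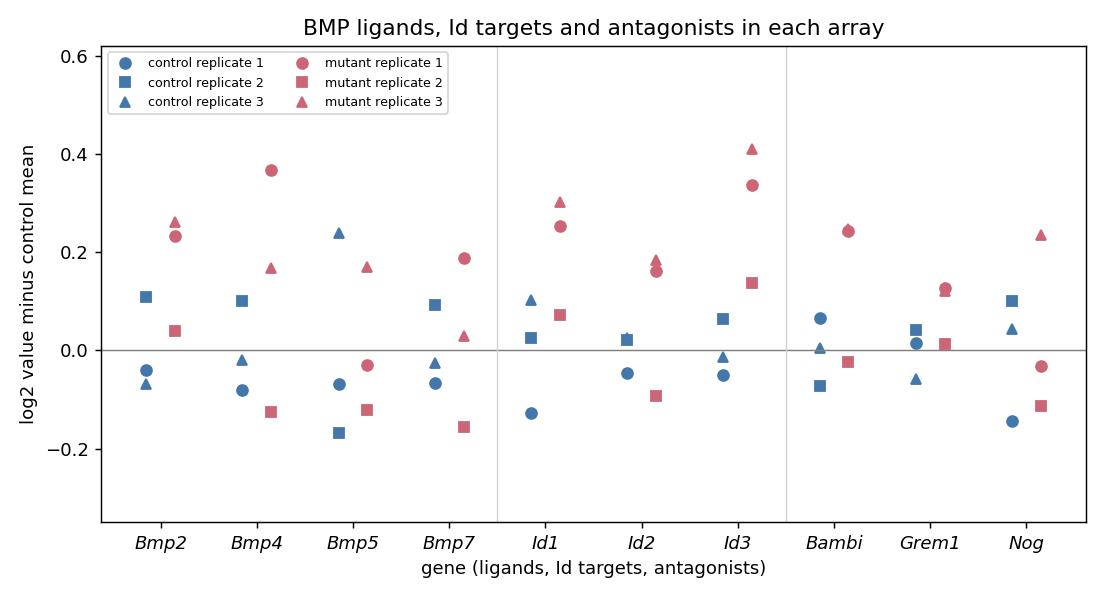
Log2 value of each gene in each array minus the mean of the 3 control arrays (y axis), for 4 ligand genes, 3 Id genes and 3 antagonist genes (x axis); blue marks are control and red marks mutant arrays, and the shape gives the replicate number. Circles and triangles of the mutants lie above all controls in 8 of 10 genes each, while the mutant squares (replicate 2) do so only for Id3.

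Among the ligands, Bmp2 and Bmp4 had the larger differences. For Bmp2, which is close in sequence to Bmp4, the log2 values were 7.13, 7.27 and 7.10 in controls 1 to 3 and 7.40, 7.20 and 7.43 in mutants 1 to 3. Mutant replicates 1 and 3 lay above all controls, and mutant replicate 2 lay inside the control range. The controls and mutant replicate 2 lay below the median of their arrays. Mutant minus control came to 0.18 on the log2 scale (SE 0.08, 95% interval -0.0018 to 0.36, adjusted p = 0.404 by limma).

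Bmp4, the ligand of the distal tips, stood at 10.34, 10.52 and 10.40 in controls and at 10.79, 10.29 and 10.59 in mutants 1 to 3. The mutants spread more widely than the controls (SD 0.25 against 0.09, n = 3 each), with mutant replicate 1 the highest and mutant replicate 2 the lowest of the 6 arrays. The log2 difference was 0.14 (SE 0.12, 95% interval -0.14 to 0.41, adjusted p = 0.655). Without mutant replicate 2 it was 0.27 (SE 0.08, adjusted p = 0.395), and without mutant replicate 1 it was 0.02.

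Bmp7, which signals through overlapping receptors and belongs with Bmp5 to another subgroup of ligands, had log2 values of 9.43, 9.59 and 9.47 in controls and 9.68, 9.34 and 9.53 in mutants 1 to 3. Its groups overlapped widely, with mutant arrays at both ends of the range (log2 difference 0.02, SE 0.09, adjusted p = 0.944). Bmp5 stood at 10.60, 10.50 and 10.91 in controls and at 10.64, 10.55 and 10.84 in mutants. Every mutant value of Bmp5 lay within the control range, and the log2 difference was 0.01 (SE 0.12, 95% interval -0.27 to 0.28, adjusted p = 0.988).

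The Id genes are direct targets of the Smads and the usual readout of BMP signalling. Id3 held the largest difference of the 10 genes, and it was the only member whose groups did not overlap, where 10.6% of all genes had all 3 mutant arrays above all 3 controls. Its log2 values were 9.25, 9.37 and 9.29 in controls and 9.64, 9.44 and 9.72 in mutants 1 to 3. The log2 difference was 0.30 (SE 0.08, 95% interval 0.12 to 0.47, adjusted p = 0.247 by limma), with p = 0.1 by a two-sided exact permutation test, the smallest that 3 arrays against 3 allow.

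Id1 stood at 8.79, 8.94 and 9.02 in controls and at 9.17, 8.99 and 9.22 in mutants 1 to 3. Mutant replicate 2 lay below the highest control and the other mutant arrays above it. The log2 difference was 0.21 (SE 0.08, 95% interval 0.02 to 0.40, adjusted p = 0.369).

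Id2, which is known from the distal tip of the lung epithelium, had log2 values of 12.06, 12.12 and 12.13 in controls and 12.26, 12.01 and 12.29 in mutants 1 to 3. The controls lay close together (SD 0.04, n = 3), with mutant replicates 1 and 3 above them and mutant replicate 2 below. The log2 difference was 0.08 (SE 0.08, adjusted p = 0.674), and 0.17 (SE 0.05, adjusted p = 0.385) without mutant replicate 2. Without mutant replicate 1 it was 0.046, and without mutant replicate 3 it was 0.035. Whether the 3 Id genes differed from each other in response was not tested.

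RefSeq promoter windows (GRCm38.p6) were found for 5 of the 10 genes: Bmp4, Bmp5, Id2, Id3 and Grem1. The 250 bases before the start of Id3, Id2 and Grem1 are shown because these are feedback or target genes in which mutant replicates 1 and 3 lay together above the controls. Capitals mark matches, on either strand, to GGCGCC, a GC-rich box bound by Smad1 and Smad5, or to CAGAC, the Smad4 box (GTCTG on the other strand). The windows are Id3 at chr4:136143572-136143821 on the plus strand, Id2 at chr12:25096093-25096342 on the minus strand and Grem1 at chr2:113758649-113758898 on the minus strand.
Id3: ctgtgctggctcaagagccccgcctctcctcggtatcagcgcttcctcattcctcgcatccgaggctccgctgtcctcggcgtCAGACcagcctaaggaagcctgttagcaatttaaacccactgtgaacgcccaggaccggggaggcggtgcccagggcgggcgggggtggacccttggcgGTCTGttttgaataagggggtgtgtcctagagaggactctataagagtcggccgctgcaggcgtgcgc
Id2: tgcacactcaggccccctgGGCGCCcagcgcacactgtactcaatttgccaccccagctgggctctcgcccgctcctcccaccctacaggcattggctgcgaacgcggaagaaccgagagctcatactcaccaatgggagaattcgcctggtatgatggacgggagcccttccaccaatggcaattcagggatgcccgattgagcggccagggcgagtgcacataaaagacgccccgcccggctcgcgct
Grem1: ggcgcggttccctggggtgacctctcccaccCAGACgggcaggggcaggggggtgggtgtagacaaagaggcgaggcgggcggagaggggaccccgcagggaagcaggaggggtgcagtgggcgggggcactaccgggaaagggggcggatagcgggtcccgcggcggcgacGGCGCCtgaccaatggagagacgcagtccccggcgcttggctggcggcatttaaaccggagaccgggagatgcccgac

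In these windows GGCGCC matched 1 time in Id2 and 1 time in Grem1, and 9.59% of 32851 windows of this length in the reference hold it. CAGAC matched 2 times in Id3, 1 time in Grem1 and 1 time in Bmp5 (42.2% of windows). CTTTGA, the core of the box bound by the TCF and LEF factors of Wnt signalling, matched in none of the 5 windows (13.8% of windows hold it), and Bmp4 held none of the 3 motifs in this window. These are matches of letters within 250 bases, not measured binding.

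Of the antagonists, Bambi had the largest difference. It encodes a pseudoreceptor that lacks a kinase domain, and BMP signalling induces it. Its log2 values were 11.49, 11.35 and 11.43 in controls and 11.67, 11.40 and 11.67 in mutants 1 to 3, so 2 of 3 mutant arrays lay above all controls. The log2 difference was 0.16 (SE 0.08, 95% interval -0.04 to 0.35, adjusted p = 0.477), and 0.24 (SE 0.06, adjusted p = 0.323) without mutant replicate 2. It was 0.11 without mutant replicate 1 or mutant replicate 3 and 0.12 without control replicate 2.

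Grem1 encodes gremlin, a secreted protein that binds Bmp2, Bmp4 and Bmp7. It stood at 7.971, 7.998 and 7.898 in controls and at 8.083, 7.968 and 8.078 in mutants 1 to 3. The 2 higher mutant values lay above all controls, by less than 0.1 log2 units (log2 difference 0.09, SE 0.06, adjusted p = 0.539).

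Nog encodes noggin, a secreted protein that sequesters BMPs. Its log2 values were 6.88, 7.13 and 7.07 in controls and 6.99, 6.91 and 7.26 in mutants 1 to 3, below the median of each array. Only mutant replicate 3 lay above the controls, and the log2 difference was 0.03 (SE 0.10, 95% interval -0.21 to 0.27, adjusted p = 0.924).

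Without mutant replicate 2, a setting in which 2 mutant arrays face 3 controls, 6 members were higher at an unadjusted p under 0.05: Bmp2, Bmp4, Id1, Id2, Id3 and Bambi, where 6.37% of all genes were. In that setting 7 members, the same 6 and Grem1, had both mutant arrays above all controls, where 16.5% of all genes did. The median difference of the 10 genes was then 0.21. Mutant replicate 2 was the lowest mutant array in each of the 10 genes, so leaving it out could only raise their differences. None passed over all genes in that setting either (0 of 10 by limma, lowest adjusted p = 0.188 for Id3). There 0 of 22180 genes passed, so the absence of members is no result about them. Only 1 member, Id3, was at an unadjusted p under 0.05 without mutant replicate 1, without mutant replicate 3 or without control replicate 1, where 7.29%, 5.99% and 8.67% of all genes were higher, so 1 of 10 is near the background. The median was then 0.06, 0.09 and 0.10. Leaving out control replicate 1 and mutant replicate 2 together again gave 6 members, against 7.75% of all genes, with a median of 0.18. That setting has 2 arrays a group, keeps mutant replicate 1 with the heart genes, and again lacks the lowest mutant array.

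**Figure D2:**
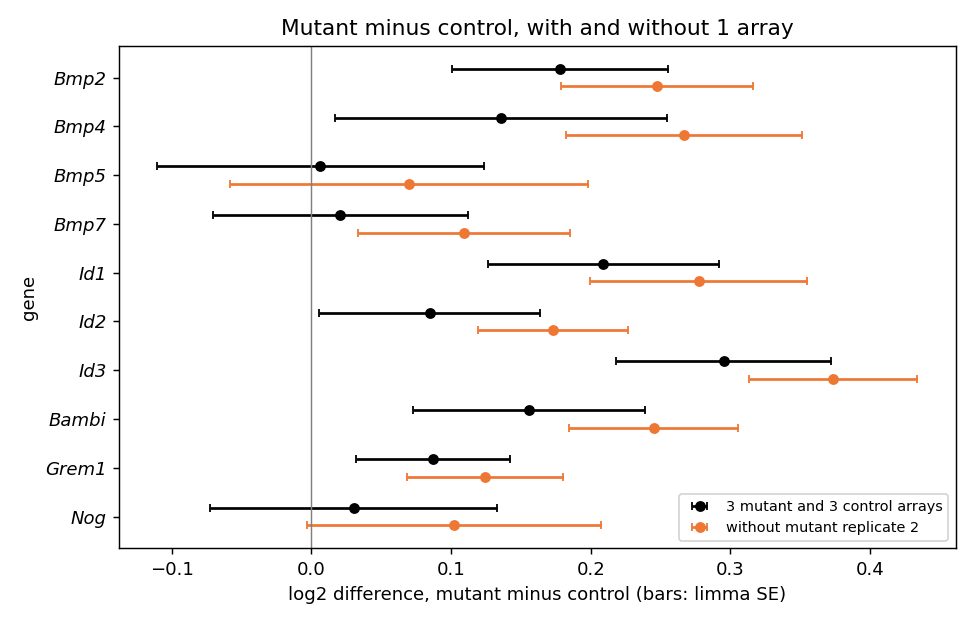
Log2 difference, mutant minus control (x axis), of each of the 10 genes (y axis) with limma's standard error as bars, from all 6 arrays (black) and without mutant replicate 2 (orange). Every orange point lies to the right of its black point, because mutant replicate 2 was the lowest mutant array in each of the 10 genes. Id3 is the rightmost in both, at 0.30 and 0.37.

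Pan-epithelial markers were lower in the mutant arrays. Of 27 measured pan-epithelial markers, 27 had lower means in mutants (median log2 difference -0.27), and their summed log2 level was 244.5 to 246.6 in controls and 236.2 to 240.1 in mutants, lowest in mutant replicate 2. In bulk tissue, fewer epithelial cells and less RNA per epithelial cell cannot be told apart. Of 14 mesenchyme markers, 7 had higher and 7 lower means. At an unadjusted p under 0.05 by limma, 6 were higher and 0 lower, where 7.34% and 5.15% of all genes were. Of the pan-epithelial markers, 0 were higher and 19 lower. For leukocyte, mesothelium and neural markers, 3, 2 and 1 were higher and 0 lower. For distal tip, smooth muscle and proximal airway markers, 2, 0 and 0 were higher and 3, 4 and 1 lower. At an adjusted p under 0.05, 1 mesenchyme marker was higher and 1 pan-epithelial marker lower (0.0631% of all genes passed). Summed log2 levels of the mesenchyme markers were 148.6 to 148.9 in controls and 150.4 to 151.3 in mutants. Summed levels of leukocyte, mesothelium and neural markers were also higher in every mutant array than in every control. They were 49.9 to 50.3 in controls and 50.9 to 51.6 in mutants for 6 leukocyte markers, 52.0 to 52.3 and 52.5 to 53.5 for 6 mesothelium markers, and 36.9 to 37.2 and 37.5 to 38.6 for 5 neural crest and neuron markers. Means were higher in 4 and lower in 2 leukocyte markers, 5 and 1 mesothelium markers, and 5 and 0 neural markers. Of 8 distal tip markers, 2 had higher and 6 lower means. Their summed log2 levels overlapped, at 75.6 to 76.5 in controls and 74.4 to 75.9 in mutants. Of 7 smooth muscle markers, 6 had lower means (summed log2 levels 70.5 to 71.6 and 68.7 to 70.3). The sum of 4 proximal airway markers was 27.2 to 27.5 in controls and 26.4 to 27.1 in mutants. Of these, Sox2 was lower (log2 difference -0.66), while Scgb3a2 (0.02), Trp63 (0.04) and Foxj1 (-0.01) differed little. All but Sox2 lay below the median of each array, so their small differences say little about proximal airway cells. The part of the mesenchyme, leukocyte, mesothelium, neural, distal tip, smooth muscle and proximal airway markers in the results above was not tested.

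When the pan-epithelial mean was added to the model as a covariate, 7 members were higher at an unadjusted p under 0.05, where 3.06% of all genes were; Id1, Bmp5 and Nog were the others. Differences grew to 0.79 (SE 0.23) for Bmp4 and 0.66 (SE 0.17) for Id3. The lowest adjusted p of a member was 0.845 by limma, in a setting where 0 of 22180 genes passed 0.05. The covariate does not overlap between the groups, so those differences are estimated with wide errors and for an epithelial level that no array of the opposite group had.

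**Figure D3:**
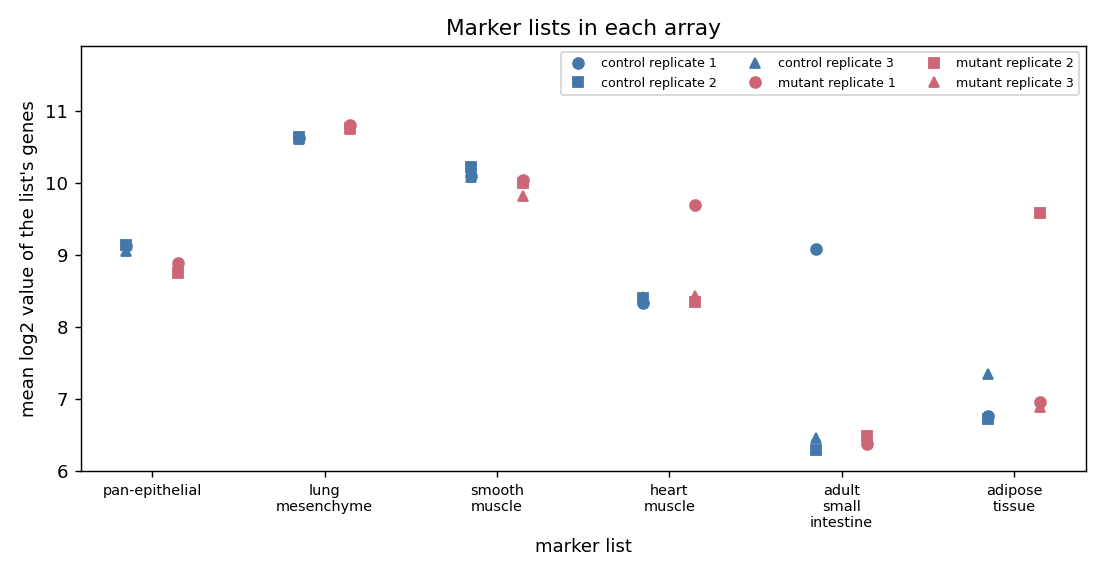
Mean log2 value over the genes of 6 marker lists (x axis) in each array (y axis, log2 units); blue marks are control and red marks mutant arrays, with shape for the replicate number. Pan-epithelial values are lower in all 3 mutants, and 3 single arrays stand apart: mutant replicate 1 in heart muscle, control replicate 1 in adult small intestine and mutant replicate 2 in adipose genes.

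The rest of the pathway was read from a list of 58 further genes, of which 55 were measured. Of these, 37 had higher and 18 lower means in mutants, and the median of the 55 log2 differences was 0.03. None passed over all genes (0 by limma), and at an unadjusted p under 0.05 there were 5 higher and 4 lower, where 7.34% and 5.15% of all genes were. In 8 genes all mutant arrays lay above all controls, and in 4 below, where 10.6% and 8.83% of all genes did. The count of 9 fell to 5 without mutant replicate 3, where 1328 of 22180 genes were higher and 870 lower.

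Of 12 further ligands, 9 had higher and 3 lower means, with a median of 0.11, and 3 were higher and 0 lower at an unadjusted p under 0.05 (7.34% and 5.15% of all genes). Over all genes, 54.8% had higher means. Gdf10, a divergent member of the family, stood at 8.17, 8.19 and 8.22 in controls and 8.47, 8.37 and 8.60 in mutants 1 to 3 (log2 difference 0.28, SE 0.06, adjusted p = 0.198). All 3 mutants, mutant replicate 2 included, lay above the controls. Smaller differences at an unadjusted p under 0.05 were those of the growth and differentiation factor genes Gdf6 (0.13, SE 0.05) and Gdf7 (0.14, SE 0.06). Both genes lay below the median of each array. Bmp10 stood at 6.14, 5.94 and 6.07 in controls and 6.19, 6.14 and 6.17 in mutants 1 to 3, below the median of each array (log2 difference 0.12, SE 0.06).

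Of 11 receptors and coreceptors, 6 had higher and 5 lower means. At an unadjusted p under 0.05, 0 were higher and 2 lower (Bmpr1b and Acvr2b), where 7.34% and 5.15% of all genes were. Bmpr1b, a type I receptor, stood at 8.28, 8.63 and 8.54 in controls and 8.21, 8.15 and 8.31 in mutants 1 to 3 (log2 difference -0.26, SE 0.09, adjusted p = 0.347), and control replicate 1 lay among the mutants. For Acvr2b, a type II receptor shared with activins, mutant minus control was -0.22 (SE 0.07, adjusted p = 0.316), and the groups did not overlap. The main type I receptor gene of the lung epithelium, Bmpr1a, had a difference of -0.03 (SE 0.05), the type II receptor gene Bmpr2 -0.06 (SE 0.06) and the type I receptor gene Acvr1 0.02 (SE 0.06).

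Of the Smads that carry the signal, Smad5 had log2 values of 10.22, 10.17 and 10.25 in controls and 10.13, 10.03 and 10.04 in mutants 1 to 3. All mutants lay below the controls, by a mean of -0.15 (SE 0.05, adjusted p = 0.334). Smad1 (-0.08, SE 0.06) and the shared partner Smad4 (-0.08, SE 0.04) had smaller differences of the same sign. Skil, a repressor of Smad activity, differed by -0.14 (SE 0.06, adjusted p = 0.382) and Smad9 by 0.12 (SE 0.08).

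Further targets were mostly higher in mean, in 8 of 9 genes, with a median of 0.07, where 54.8% of all genes had higher means. Dlx3, a homeobox gene, had the largest difference of the further pathway genes, at 7.55, 7.43 and 7.61 in controls and 7.82, 7.81 and 7.93 in mutants 1 to 3 (log2 difference 0.32, SE 0.06, adjusted p = 0.160). Its mutant arrays lay close together above all controls. The inhibitory Smads, which BMP signalling induces as feedback, had small differences, 0.07 (SE 0.07) for Smad6 and 0.05 (SE 0.05) for Smad7. Id4, the remaining member of the Id family, stood at 8.14, 7.97 and 8.29 in controls and 8.19, 8.24 and 8.25 in mutants (log2 difference 0.09, SE 0.08, adjusted p = 0.647), all mutants within the control range.

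Of 15 further antagonists and modulators, 12 had higher means, with a median of 0.04, where 54.8% of all genes had higher means. Sost encodes sclerostin, a secreted inhibitor best known from Wnt signalling. It was the 1 gene of 15 at an unadjusted p under 0.05, near the 7.34% of all genes that were higher. Its log2 values were 7.23, 6.87 and 7.06 in controls and 7.29, 7.44 and 7.30 in mutants (log2 difference 0.29, SE 0.09, adjusted p = 0.314). The controls and mutant replicate 3 lay below the median of their arrays. The chordin gene Chrd had a difference of -0.09 (SE 0.06), the follistatin gene Fst 0.05 (SE 0.08) and Bmper, which encodes a BMP-binding endothelial regulator, 0.08 (SE 0.07). Chrdl1, a chordin-like antagonist gene, stood at 8.47 in mutant replicate 2, the array with the adipose genes, and at 7.11 to 7.90 elsewhere (log2 difference 0.08, SE 0.32). Dand5, Msx1 and Rgma had no probe set with a single symbol and were not analysed here.

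**Figure D4:**
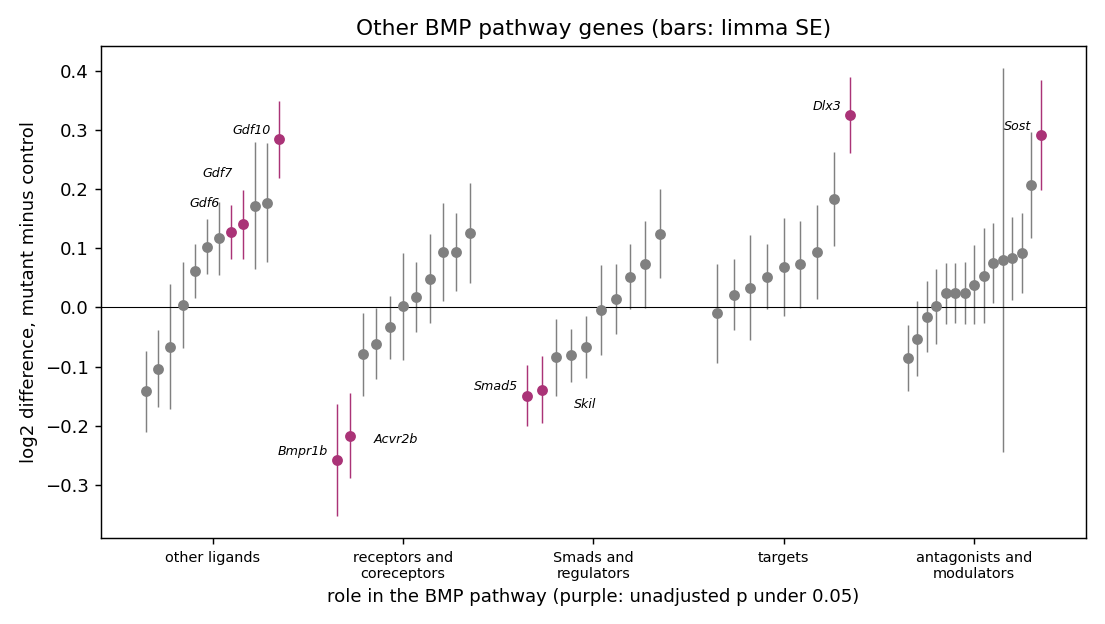
Log2 difference, mutant minus control (y axis), of the 55 further BMP pathway genes by role (x axis) with limma's standard error as bars; Smad6 and Smad7 appear under both Smads and targets. The 9 named genes in purple are those at an unadjusted p under 0.05, 5 higher and 4 lower in mutants, none of which passed over all genes.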

How the data were processed

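The authors deposited log2 expression values in 1 table for the 6 arrays. The submitters' processing notes name oligo and RMA; for versions, probe set level and filters nothing was found in the labels. RMA scales the arrays to each other, so changes are read relative to other genes; the distributions of the deposited columns were close but not identical. The levels of different genes were not compared with each other. Single genes were set against the array median, and log2 values were summed or averaged within marker lists.

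Of 41345 probe sets, 23521 carried 1 symbol, 1814 several and 16010 none; the 23521 gave 22180 genes (highest mean over all arrays where a gene had several). Hjv was listed under its older symbol Hfe2. The model was fitted in limma 3.58.1 (R 4.3.3; lmFit and eBayes) with genotype alone, two-sided, and p-values were adjusted over all genes by Benjamini-Hochberg (threshold 0.05). Differences are mutant minus control, with n = 3 and 3, and the number of arrays limits the precision. Names were matched to RefSeq by Entrez identifier for 21994 genes, with 0 differing symbols. The members and all gene lists were chosen with earlier results of these data known; besides the members, the text names the further pathway genes at an unadjusted p under 0.05 and a fixed set of receptors, Smads and antagonists; Bmp10 and Smad9 were named after their values were seen. On simulated data with the spread of these 22180 genes, 72 of 100 genes changed by 0.5 and 97 of 100 changed by 1 on the log2 scale were recovered, and 5 of 174 calls were false. The simulated noise was independent between genes, and the planted changes outnumber the 14 genes called in the deposited data. The recovered shares may therefore not carry over to these arrays. Same-numbered arrays did not deviate together (r = -0.04, -0.06 and 0.07 across genes), so the numbers were not treated as pairs. Alternatives were another normalization, a filter at the 30th percentile, averaged probe sets, other variance models, array weights, a replicate block, an epithelial covariate and each array left out. Plots used matplotlib 3.10.9 (Python 3.11.15).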

Additional observations from a re-analysis of the deposited data

How the results depend on the processing

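No member and no further pathway gene passed limma at an adjusted p under 0.05 in any of the 14 alternatives run. Of all genes, 0 passed with the replicate block, the epithelial covariate or arrays left out, and 8 to 46 passed in the other alternatives. Where 0 genes passed, the absence of members is no result about them. At an unadjusted p under 0.05 by limma there were 2 members with all 6 arrays (7.34% of all genes higher). With the replicate block there were 3 (6.80%). The filter at the 30th percentile, averaged probe sets, other variance models and the replicate block could not change a member's difference. Each member had 1 probe set and the groups were balanced. Bmp2, Bmp4, Id1, Id2, Id3, Bambi and Grem1 kept a positive difference in all 14. The small differences of the other members turned: that of Bmp5 was -0.0036 with array weights and -0.042 with the epithelial covariate and, with 1 array left out, at its extremes -0.078 (control replicate 2 omitted) and 0.13 (control replicate 3 omitted), that of Bmp7, with 1 array left out, ran from -0.063 (without mutant replicate 1) to 0.11 and that of Nog from -0.072 (without mutant replicate 3) to 0.10; with the covariate they were 0.48 and 0.26. Members at an unadjusted p under 0.05 numbered 4 with array weights (7.97% of all genes higher), 7 with the epithelial covariate (3.06%), 6 without control replicate 1 and mutant replicate 2 together (7.75%), and 1 to 6 with 1 array left out (4.84% to 8.67%). Members without overlap of the groups numbered 2 after a further quantile normalization (13.6% of all genes with mutants above), 7 without both those arrays (26.5%), and 1 to 7 with 1 array left out (14.6% to 19.6%). Further pathway genes at an unadjusted p under 0.05 numbered 4 with the covariate, where 678 of 22180 genes were higher and 571 lower. With 1 array left out they numbered 5 to 9, where 1073 to 1923 of all genes were higher and 724 to 1161 lower. The cause of these shifts was not tested. With 3 arrays a group, differences under 0.5 on the log2 scale, as all of these were without a covariate, lie below the smallest size tried on simulated data.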
